A study of Mus musculus with 6 samples.

Results

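The Elovl genes encode the fatty acid elongases, and all 7 members of the mouse family (Elovl1 to Elovl7) were read out of 30142 genes measured in the epidermis of Rptor cKO and wild-type embryos. Members were chosen by name, as genes with a probe set whose only platform symbol is the member. Each member had 1 such probe set, so no choice between probe sets was made. The family itself was chosen with earlier results of these data known. RNA was measured on 6 expression arrays, 1 per epidermal sheet from mouse embryos at stage E18.5. The 3 Rptor cKO sheets came from embryos with a conditional knockout of Rptor, which encodes Raptor, the substrate-binding subunit of the growth-controlling kinase complex mTORC1. The 3 wild-type sheets came from embryos of the same litters, as far as the labels describe them. Embryos were sorted by appearance and by genotyping, and the sheets were lifted from the dermis with ammonium thiocyanate. The sources used here name no Cre line. All values are log2 array values, and each difference is the Rptor cKO mean less the wild-type mean.

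An elongase carries out the first step of a cycle in the endoplasmic reticulum that lengthens a fatty acyl-CoA by condensing it with malonyl-CoA. A reductase, a dehydratase and a second reductase shared by all elongases complete the cycle. The family members differ in the chains they accept. ELOVL6 acts on palmitate and similar long chains, ELOVL1, ELOVL3 and ELOVL7 on longer saturated and monounsaturated chains, ELOVL4 on the ultra-long chains, and ELOVL2 and ELOVL5 on polyunsaturated chains. In the epidermis, ultra-long chains become part of the acylceramides that seal the water barrier, and mice that lack Elovl4 or Elovl1 die soon after birth with a leaky skin.

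The targeted gene Rptor read 6.54, 6.82 and 6.72 in Rptor cKO arrays 1 to 3, against 6.98, 7.46 and 7.004 in wild-type arrays 4 to 6. The groups did not overlap, yet the fall of -0.46 (SE 0.15) missed the threshold (limma adjusted p = 0.099). The labels do not say which exons are removed, and a probe set outside them would not show the deletion. The level of Xist marked 2 Rptor cKO embryos as female and 1 (array 2) as male, and all 3 wild-type embryos as male. Of 14 keratinocyte markers, the basal keratins Krt5 and Krt14 differed by 0.035 and 0.26 and did not pass the test. Krt15, another basal keratin, fell by 2.31, and Krt1 and Krt10 of the suprabasal layers fell by 2.07 and 1.76. Dsg1a (-2.15), Lor (-1.47), Flg (-2.57), Ivl (-1.90) and Casp14 (-3.87) also fell. Trp63, Itga6, Col17a1 and Tgm1 did not pass the test. How the calls of Dsg1a, Lor, Flg, Ivl and Casp14 depend on single arrays was not examined. Without Rptor cKO array 2 or wild-type array 6 the calls of Krt1 (limma adjusted p = 0.0504 and 0.057) and Krt10 (0.0703 and 0.0647) were lost, and that of Krt10 also without Rptor cKO array 1 (0.0529). Whether fewer cells of a layer or less RNA per cell lies behind a lower value cannot be told apart in whole sheets.

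Expression of 6 of the 7 elongases was lower in Rptor cKO epidermis. The measured falls ran from 1.59-fold for Elovl5 to 4.94-fold for Elovl7, with only a bound for Elovl3, and Elovl2 did not pass the test. Of all 30142 genes, 9.58% were called by the same test (limma, Benjamini-Hochberg adjusted p below 0.05), 5.95% lower and 3.63% higher. The groups did not overlap, with Rptor cKO below wild type, for the same 6 members, and for 12.5% of all genes, while 29.0% of all genes did not overlap in either direction. The median difference of the 7 members was -1.59, beside 0.05 over all genes. No member was higher at an unadjusted p below 0.05 either.

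**Figure D1:**
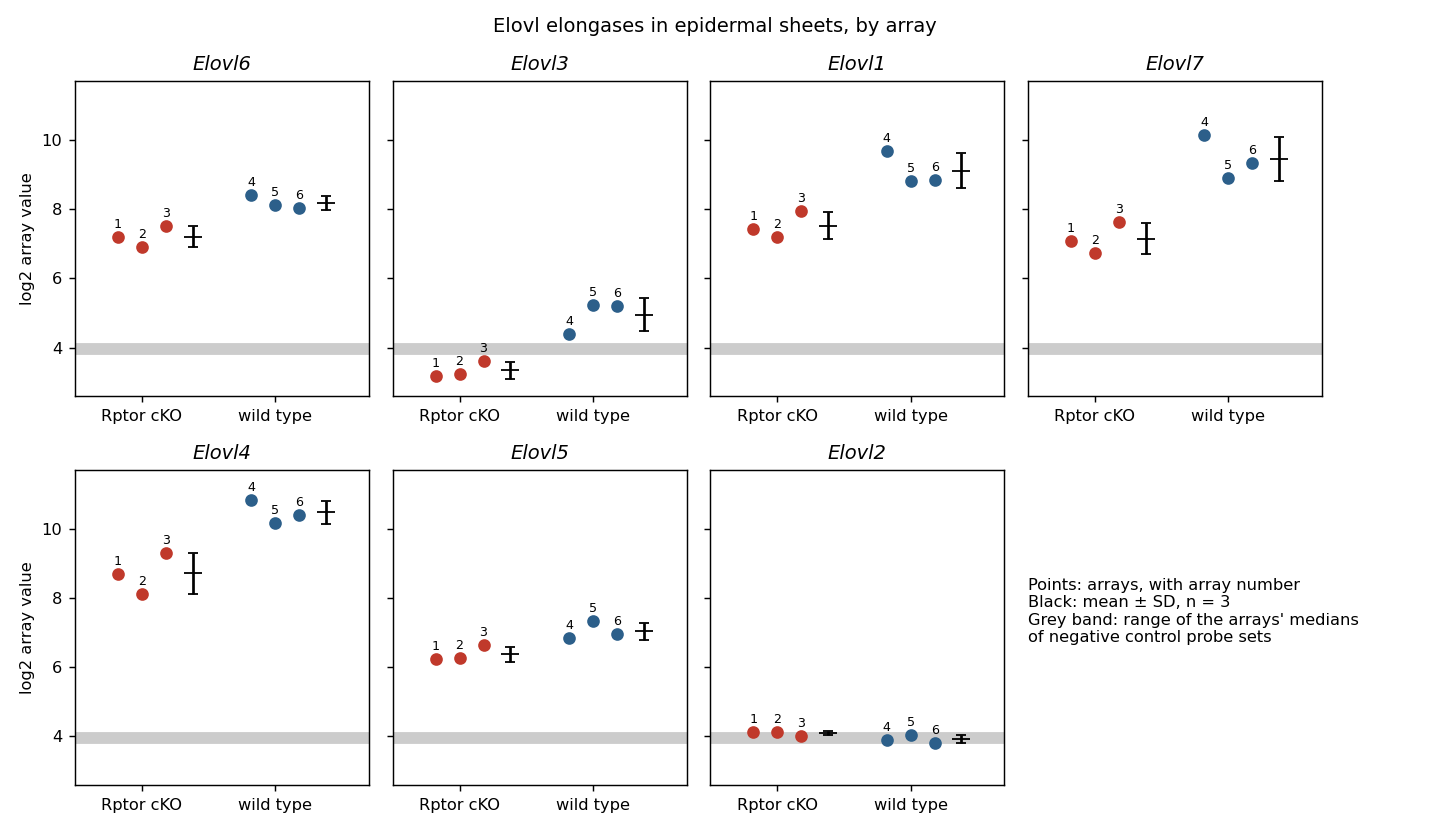
Log2 array value (vertical axis) of each elongase in 3 Rptor cKO (red, left) and 3 wild-type (blue, right) arrays, with the array number above each point and the mean ± SD in black. The grey band spans the arrays' medians of negative control probe sets, 3.81 to 4.11. Elovl2 lies at or close to the band in both groups and Elovl3 lies below it in Rptor cKO.

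Elovl7 showed the largest measured change of the family. It lies on chromosome 13, from 108214326 to 108287109 (GRCm38), and its enzyme extends saturated and monounsaturated chains. Elovl7 read 7.08, 6.73 and 7.63 in Rptor cKO arrays 1 to 3, against 10.13, 8.89 and 9.33 in wild-type arrays 4 to 6. Every Rptor cKO array lay at least a full log2 unit below every wild-type array. The means were 7.15 ± 0.45 in Rptor cKO sheets and 9.45 ± 0.63 in wild-type sheets (SD, n = 3 each). This was a 4.94-fold fall (-2.31, SE 0.32, 95% interval -3.04 to -1.57, limma adjusted p = 0.00517), which ranked 105 among the falls of all genes by size. The promoter of Elovl7 is shown because that gene had the largest measured fall. Capitals mark every match, on either strand, to the motifs searched in all promoters: the E-box CACGTG, the AP-1 site TGANTCA, the CCAAT box CCAAT, the GC box GGGCGG, the nuclear receptor motif AGGTCA and CACNCCAC, a core of the sterol regulatory element. The sequence is RefSeq's, 250 bases before to 50 after the start site, on the plus strand at chr13:108214154-108214453 (GRCm38.p6).
Elovl7: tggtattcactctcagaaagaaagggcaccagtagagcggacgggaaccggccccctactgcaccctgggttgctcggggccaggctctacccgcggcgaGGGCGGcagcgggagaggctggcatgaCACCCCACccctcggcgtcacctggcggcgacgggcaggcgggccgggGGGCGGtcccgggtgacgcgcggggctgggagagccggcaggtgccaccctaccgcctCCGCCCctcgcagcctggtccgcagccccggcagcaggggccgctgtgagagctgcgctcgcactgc
It holds 3 GC boxes and 1 match to CACNCCAC, which begins at position -123, counted from the start site as position 1. The GC box was present in 35.7% of 32851 promoter windows of this length, and CACNCCAC in 6.24%. A match is a description of the letters and not a sign of binding.

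Elovl4, whose enzyme makes the ultra-long chains of acylceramide, lies on chromosome 9 from 83778692 to 83806305. It read 8.68, 8.12 and 9.30 in Rptor cKO arrays 1 to 3, against 10.84, 10.17 and 10.39 in wild-type arrays 4 to 6. The groups were apart, and Rptor cKO array 3 came nearest to the wild type. Means of 8.70 ± 0.59 in Rptor cKO sheets and 10.47 ± 0.34 in wild-type sheets (SD, n = 3 each) gave a 3.39-fold fall (-1.76, SE 0.28, 95% interval -2.41 to -1.11, limma adjusted p = 0.00897). Elovl1 extends saturated and monounsaturated chains to very long lengths and lies on chromosome 4 from 118426874 to 118432953. It read 7.42, 7.20 and 7.94 in Rptor cKO arrays 1 to 3, against 9.69, 8.81 and 8.83 in wild-type arrays 4 to 6. Here too the groups were apart, with wild-type array 4 the highest of all. Means of 7.52 ± 0.38 in Rptor cKO sheets and 9.11 ± 0.50 in wild-type sheets (SD, n = 3 each) gave a 3.01-fold fall (-1.59, SE 0.27, 95% interval -2.20 to -0.98, limma adjusted p = 0.00978). Without Rptor cKO array 2 the Elovl1 difference was -1.42 and missed the threshold (limma adjusted p = 0.0513).

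The promoters of these 2 genes, which were the most alike of all member pairs over the arrays, are set side by side with the same motifs in capitals. That of Elovl4 is on the minus strand at chr9:83806256-83806555 and that of Elovl1, the first of 2 windows, on the plus strand at chr4:118427843-118428142.
Elovl4: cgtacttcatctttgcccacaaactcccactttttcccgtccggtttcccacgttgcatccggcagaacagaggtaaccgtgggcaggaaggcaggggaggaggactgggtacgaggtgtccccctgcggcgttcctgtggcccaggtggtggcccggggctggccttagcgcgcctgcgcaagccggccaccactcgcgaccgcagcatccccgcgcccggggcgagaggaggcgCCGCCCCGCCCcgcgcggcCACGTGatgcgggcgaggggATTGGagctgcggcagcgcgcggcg
Elovl1: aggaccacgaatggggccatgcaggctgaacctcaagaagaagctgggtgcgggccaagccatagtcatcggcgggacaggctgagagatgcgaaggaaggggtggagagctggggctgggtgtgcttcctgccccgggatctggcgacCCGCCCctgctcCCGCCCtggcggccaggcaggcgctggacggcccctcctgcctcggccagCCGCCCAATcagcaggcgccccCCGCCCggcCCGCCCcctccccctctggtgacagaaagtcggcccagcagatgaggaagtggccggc
Both are rich in G and C, at 71.0% for Elovl4 and 70.7% for Elovl1, and both hold GC boxes close to the start site and a CCAAT box in one orientation or the other. The window of Elovl4 has 2 overlapping GC boxes, and in that of Elovl1 a GC box of 5 overlaps the CCAAT box. An E-box CACGTG, found in 7.15% of all windows, is present in that of Elovl4 and absent from that of Elovl1. The CCAAT box was found in 37.4% of all windows.

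Elovl3, an elongase of sebaceous glands, hair follicles and brown fat in the mouse, lies on chromosome 19 from 46131897 to 46135694. It read 3.17, 3.25 and 3.62 in Rptor cKO arrays 1 to 3, against 4.40, 5.24 and 5.22 in wild-type arrays 4 to 6. On each Rptor cKO array Elovl3 read less than the median of 5222 negative control probe sets, so only a bound can be given. These controls are a rough guide, with 95th percentiles of 7.46 to 8.07 over the 6 arrays. With values raised to that median the fall was at least 2.02-fold (measured -1.61, SE 0.23, 95% interval -2.13 to -1.08, limma adjusted p = 0.00571). Wild-type array 4, the highest for Elovl7, Elovl4 and Elovl1, was the lowest wild-type array for Elovl3.

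Of 6 sebaceous gland markers beside Elovl3, Awat1, a wax synthase, fell (-2.12, SE 0.16, limma adjusted p = 0.000937) and the other 5 did not pass the test. The summed log2 level of the 6 markers was 28.0 to 30.5 in Rptor cKO and 32.3 to 32.9 in wild type. These sums include Awat1, at 3.73 to 3.96 in Rptor cKO and 5.60 to 6.24 in wild type. The groups overlapped for Krt79, Mgst1 and Dgat2l6, and not for Mc5r (-0.32) and Awat2 (-0.23). The sebaceous marker Dgat2l6 stayed under that median on each of the 6 arrays. None of 7 adipocyte and brown fat markers passed the test, or had an unadjusted p below 0.05. Their summed level was 29.8 to 31.9 in Rptor cKO and 30.2 to 32.5 in wild type. Adipoq read under that median on 2 Rptor cKO and 3 wild-type arrays, and Ucp1 on 2 and 2. Lep lay close to it (means 4.09 and 4.06), so a fall of these markers could hardly be seen. Plin1 (5.23 and 5.21) and Cidea (5.82 and 5.96) read above it. Of 7 hair placode and follicle markers none fell and 3 rose (adjusted p below 0.05), with no fall at an unadjusted p below 0.05. The part of these cells in the Elovl3 value was not tested.

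Elovl6 turns palmitate-length chains into stearate-length chains and lies on chromosome 3 from 129532386 to 129638495. It read 7.19, 6.92 and 7.51 in Rptor cKO arrays 1 to 3, against 8.40, 8.13 and 8.02 in wild-type arrays 4 to 6. The groups did not overlap, and Rptor cKO array 3 came nearest to the wild type. Means of 7.21 ± 0.30 in Rptor cKO sheets and 8.18 ± 0.20 in wild-type sheets (SD, n = 3 each) gave a 1.97-fold fall (-0.98, SE 0.16, 95% interval -1.35 to -0.60, limma adjusted p = 0.00995).

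Elovl5, on chromosome 9 from 77917365 to 77984519, lengthens the products of the desaturases FADS1 and FADS2. It read 6.23, 6.26 and 6.63 in Rptor cKO arrays 1 to 3, against 6.85, 7.32 and 6.96 in wild-type arrays 4 to 6. The gap between the groups was narrow, with Rptor cKO array 3 close to wild-type array 4. The fall was 1.59-fold (-0.67, SE 0.16, 95% interval -1.03 to -0.31, limma adjusted p = 0.0323), the smallest of the 6. The call was lost without Rptor cKO array 1 (adjusted p = 0.0931), Rptor cKO array 2 (adjusted p = 0.133), wild-type array 5 (adjusted p = 0.0726) or wild-type array 6 (adjusted p = 0.0723), with differences from -0.71 to -0.53.

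The Elovl5 promoter, on the plus strand at chr9:77917115-77917414, is shown as that of the member with the smallest fall.
Elovl5: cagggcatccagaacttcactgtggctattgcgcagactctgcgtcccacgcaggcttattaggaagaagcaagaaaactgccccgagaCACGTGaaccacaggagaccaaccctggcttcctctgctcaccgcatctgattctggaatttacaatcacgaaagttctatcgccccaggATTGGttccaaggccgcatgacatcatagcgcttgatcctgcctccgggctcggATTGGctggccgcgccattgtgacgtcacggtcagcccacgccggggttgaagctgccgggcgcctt
Like that of Elovl4 it holds an E-box CACGTG, here from position -161, and it has 2 CCAAT boxes in reverse orientation. It has no GC box, and neither has the window of Elovl6, whereas the first window of Elovl2, which did not pass the test, holds 5.

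Elovl2, which extends the longer polyunsaturated chains and lies on chromosome 13 from 41182382 to 41220403, read 4.13, 4.12 and 4.02 in Rptor cKO arrays 1 to 3, against 3.90, 4.05 and 3.81 in wild-type arrays 4 to 6. The groups overlapped, and every value lay close to the negative control medians of 3.81 to 4.11. The difference of 0.17 (SE 0.097, 95% interval -0.048 to 0.40) did not pass the test (limma adjusted p = 0.332). At a level so near the controls a fall could not be seen.

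**Figure D2:**
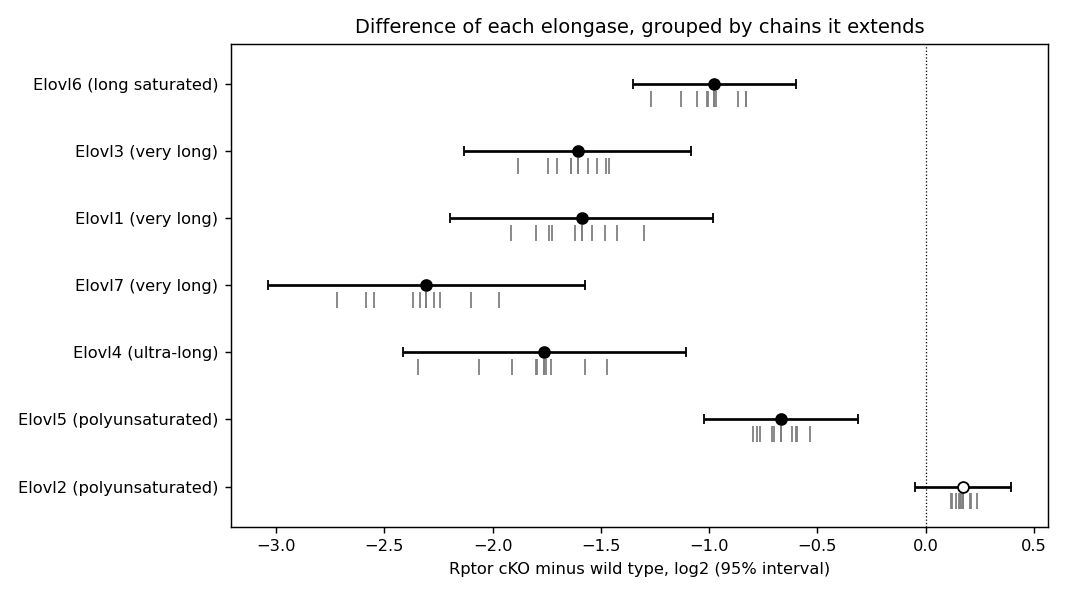
Difference of each elongase, Rptor cKO minus wild type in log2 units (horizontal axis), with its 95% interval from limma, ordered by the chains it extends. Filled points passed the test, the open point (Elovl2) did not, and grey ticks give the difference under 13 other settings. All ticks of the 6 members that passed lie below 0.

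The measured differences of the members were unequal in size, but no ratio between members reached a p below 0.05 by exact permutation. The log2 ratio of Elovl7 to Elovl1 within an array was -0.35, -0.46 and -0.32 in Rptor cKO arrays 1 to 3, against 0.44, 0.084 and 0.50 in wild-type arrays 4 to 6, so that Elovl7 lay lower relative to Elovl1 in every Rptor cKO sheet. The ratio of Elovl6 to Elovl1 was -0.23, -0.28 and -0.43 in Rptor cKO, against -1.29, -0.68 and -0.81 in wild type. It was thus higher in every Rptor cKO sheet, with a difference of 0.61. The ratio of Elovl5 to Elovl1 was likewise higher in Rptor cKO, by 0.92. The ratio of Elovl4 to Elovl1 overlapped between the groups, at 1.18 ± 0.23 in Rptor cKO sheets and 1.36 ± 0.20 in wild-type sheets (SD, n = 3 each), and so did that of Elovl3 to Elovl1. Elovl3 read under the negative control median on every Rptor cKO array, so the overlap of its ratio cannot show equal change. Of 7 such ratios compared, 5 separated the groups, but 2 of these set a member against Elovl2, which lay close to the negative control medians. Only 3 compare members read above those medians in both groups. Elovl5 still lay under its array's 95th percentile of these controls on every array. Elovl6 and Elovl7 did so on every Rptor cKO array, and Elovl1 on Rptor cKO arrays 1 and 2. Each of these 5 ratios reached the smallest p that an exact two-sided permutation of 3 against 3 arrays allows, 0.1 (0.14 adjusted over the 7). Such a ratio shows unequal change and not that either gene was constant.

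The arrays within a group also ordered the members differently. Among Rptor cKO arrays, array 3 was the highest for all 6 members that fell, as it was for 81.5% of all 1793 genes called lower. Among wild-type arrays, array 4 was the highest for Elovl6, Elovl1, Elovl7 and Elovl4, and array 5 for Elovl3 and Elovl5. Over all genes called lower, array 4 was the highest for 56.7% and array 5 for 18.1%. Krt10 had the same order among Rptor cKO arrays as Elovl4, at 10.78, 10.54 and 12.11 in arrays 1 to 3, against 12.97, 12.82 and 12.93 in wild-type arrays 4 to 6. The 14 keratinocyte markers summed to 124 to 138 on the log2 scale in Rptor cKO and 145 to 149.5 in wild type, and 8 of them were lower. The part of these keratinocyte markers in the elongase values was not tested.

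Closeness of pattern was measured as the root mean square difference over the 6 arrays between log2 values centred on each gene's own mean. Elovl4 was nearest to Dmkn (0.11), which encodes dermokine of the suprabasal epidermis, then to Adtrp (0.14) and Cds1 (0.15). Elovl5 was nearest to Srebf2 (0.045), the transcription factor of sterol synthesis, then to Mindy1 (0.070) and Ezh1 (0.071). Elovl3 was nearest to Mettl7a1 (0.13), Scd1 (0.14), the stearoyl-CoA desaturase of sebaceous glands, and Cyp3a13 (0.16). For Elovl6 the nearest were Nfe2l3 (0.039), Cyp2b13 (0.068) and Tom1l2 (0.072), and for Elovl1 Liph (0.064), Retreg1 (0.071) and Zdhhc9 (0.073). Elovl7 lay nearest to Agpat5 (0.098), an acyltransferase of phosphatidic acid synthesis, Fam214a (0.11) and Asah2 (0.13), a ceramidase. Among the members themselves Elovl1 and Elovl4 were the closest pair (0.20), followed by Elovl6 and Elovl5 (0.28). With 6 arrays in 2 groups, genes of equal change come out near to each other.

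Genes next to the elongases on the chromosome did not share their direction as a rule. Of 16 overlapping or adjacent protein-coding genes, 14 were measured, 2 of which were lower (Gbf1 and Sh3bgrl2) and 2 higher (Nolc1 and Cdc20) (background 5.95% and 3.63%). The cell cycle gene Cdc20, which overlaps Elovl1 in the RefSeq annotation, rose by 0.59 (SE 0.13, limma adjusted p = 0.0234), a call lost without any 1 of the Rptor cKO arrays (0.0526 to 0.0913). The call of Nolc1 was lost without any 1 array other than wild-type array 6 (limma adjusted p = 0.0541 to 0.12), and that of Gbf1 without Rptor cKO array 2 (0.0583). Pitx3, which overlaps Elovl3, differed by -0.074 (SE 0.11, limma adjusted p = 0.742). Sh3bgrl2, 178399 bases from Elovl4, fell (-1.14, SE 0.15, limma adjusted p = 0.00396). Probe positions were not used here, so shared probes in the overlapping pairs were not examined.

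Of 7 other enzymes of the elongation cycle measured, 1 fell, and no other passed the test (median -0.38), while 3 were lower and 1 higher at an unadjusted p below 0.05. Tecr, the reductase of the last step, averaged 9.92 ± 0.24 in Rptor cKO sheets and 10.50 ± 0.12 in wild-type sheets (SD, n = 3 each), a difference of -0.58 (SE 0.13, limma adjusted p = 0.0308). Hacd4 and Tecrl stayed below the negative controls' median on each of the 6 arrays, where a fall could not be seen. The call of Tecr was lost in 8 of 13 other settings, among them the fits without Rptor cKO array 1 or 2 and those without any 1 of the wild-type arrays. The ketoacyl reductase Hsd17b12 differed by -0.48 (SE 0.17, limma adjusted p = 0.13) and the dehydratase Hacd2 by -0.50 (SE 0.20, limma adjusted p = 0.185). Whether the elongases fell by more than these partners was not tested.

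Enzymes that supply substrates to the elongases were lower in part. In the supply of malonyl-CoA and palmitate, 3 of 9 genes fell and none rose (median -0.33, with none higher at an unadjusted p below 0.05). These were Acaca, the acetyl-CoA carboxylase that makes malonyl-CoA (-0.78, SE 0.11), Acly, which makes cytosolic acetyl-CoA (-0.66, SE 0.12), and Me1, which makes NADPH (-1.004, SE 0.16). The call of Acly was lost without Rptor cKO array 2 (limma adjusted p = 0.0641). Fasn, the fatty acid synthase, read 8.32, 8.50 and 8.58 in Rptor cKO arrays 1 to 3, against 8.79, 8.86 and 8.75 in wild-type arrays 4 to 6, and missed the threshold (-0.33, SE 0.099, limma adjusted p = 0.0761). Of 16 genes that activate or bind acyl chains, 8 fell and none rose (median -0.50, with none higher at an unadjusted p below 0.05). The examples with the smallest p were the acyl-CoA synthetases Acsl4 (-1.08, SE 0.14), Acsbg1 (-1.84, SE 0.30) and Slc27a4 (-1.42, SE 0.25), the last an epidermal fatty acid transport protein, and the peroxisomal acyl-CoA binding protein Acbd5 (-0.59, SE 0.088). The falls numbered 2 in that list without Rptor cKO array 2, where Acsbg1 (limma adjusted p = 0.0501) and Slc27a4 (0.0596) were not called.

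Desaturases insert double bonds into chains before or after elongation. Of 8 measured, 4 fell and none rose (median -0.39, with 1 higher at an unadjusted p below 0.05). With quantile normalization, and also without wild-type array 5, 1 desaturase was called higher. Scd2, also listed, had no probe set that names it alone and was not analysed here. Scd1 read 5.00, 5.30 and 5.68 in Rptor cKO arrays 1 to 3, against 6.52, 7.55 and 7.29 in wild-type arrays 4 to 6. It was lower in every Rptor cKO array, a 3.47-fold fall (-1.80, SE 0.27, limma adjusted p = 0.0066). Scd1 has several probe sets, and their mean gave a smaller difference of -1.16 (limma adjusted p = 0.0199). Fads2b fell 9.62-fold (-3.27, SE 0.47), Scd3 fell by 0.84 (SE 0.14) and Fads2, which acts before Elovl5, fell by 0.53 (SE 0.11). The Fads2b difference was -3.90 without Rptor cKO array 3. The call of Fads2 was lost without Rptor cKO array 1 or 2 or wild-type array 5 or 6 (limma adjusted p = 0.0519 to 0.0923). Fads1, which acts after Elovl5, differed by 0.43 (SE 0.12, limma adjusted p = 0.063).

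The genes that use very long and ultra-long chains included the largest falls of these lists besides Fads2b. Of 18 measured, 11 fell and 2 rose, with a median of -1.53. Pnpla1, the transacylase that completes acylceramide, fell 5.11-fold (-2.35, SE 0.40), Abhd5, its cofactor, fell 3.14-fold (-1.65, SE 0.18) and Cyp4f39, the omega-hydroxylase of ultra-long chains, fell 2.88-fold (-1.53, SE 0.20). Awat1 read under the negative control median on 2 of 3 Rptor cKO arrays, and its fall was 3.90-fold with values raised to that median. The call of Pnpla1 was lost without Rptor cKO array 2 (limma adjusted p = 0.0504).

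The list holds every ceramide synthase measured, also those of shorter chains, and they moved in both directions. Cers3, which uses the ultra-long chains made by ELOVL4, read 7.13, 6.56 and 7.19 in Rptor cKO arrays 1 to 3, against 9.37, 7.82 and 8.30 in wild-type arrays 4 to 6 (-1.54, SE 0.36, limma adjusted p = 0.0323). Cers2, which uses very long chains, rose by 0.74 (SE 0.15, limma adjusted p = 0.0204), and Cers5, which uses palmitate-length chains, rose by 0.56 (SE 0.11, limma adjusted p = 0.0156). None of these 3 was called without Rptor cKO array 2 (limma adjusted p = 0.133 for Cers3, 0.0679 for Cers2 and 0.0638 for Cers5). Without Rptor cKO array 1 the calls of Cers3 (0.0615) and Cers5 (0.0509) were lost, and that of Cers3 also without wild-type array 6 (0.0772). Cers4 and Cers6 did not pass the test. Cers3 is named here outside the rule for naming genes and was chosen after its values were seen. Without Rptor cKO array 2 the falls of this list numbered 3 and the rises 0, by limma, with 15 genes of either direction at an unadjusted p below 0.05.

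**Figure D3:**
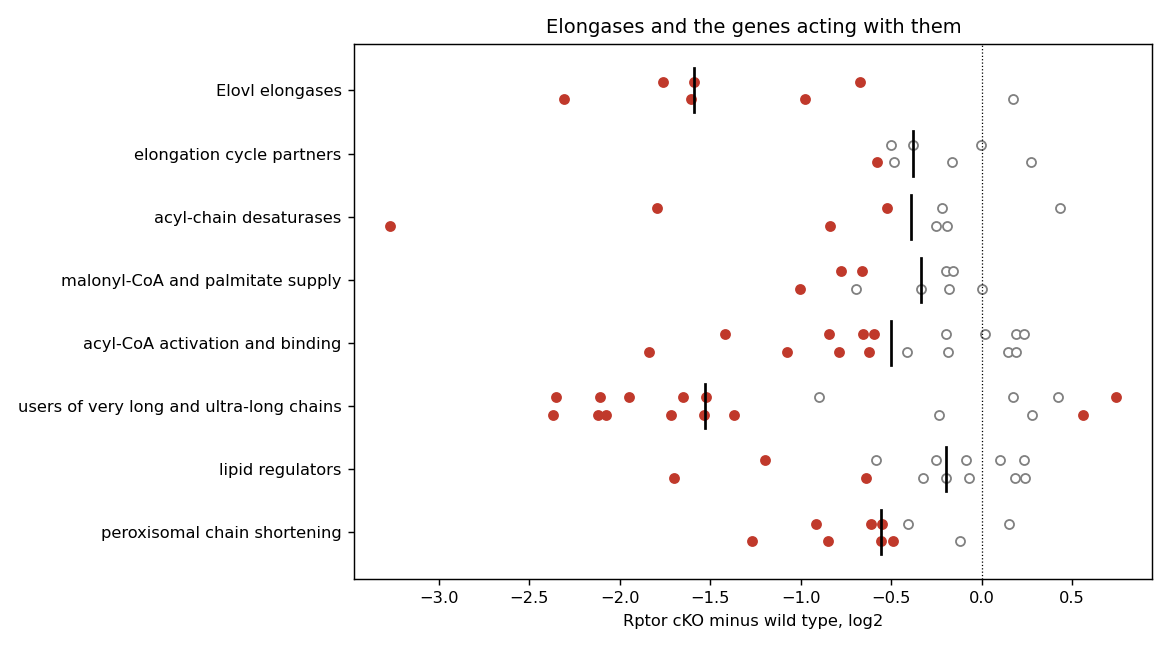
Difference of each gene, Rptor cKO minus wild type in log2 units (horizontal axis), for the elongases and 7 lists of genes that act with them (rows). Filled red points passed the test, open points did not, and the black bar is the median of the row. The medians of the elongases (-1.59) and of the users of very long and ultra-long chains (-1.53) lie farthest below 0.

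Of 10 genes for the shortening of very long chains in peroxisomes, 7 fell and none rose (median -0.55, with none higher at an unadjusted p below 0.05). Acox3, an acyl-CoA oxidase, fell 2.41-fold (-1.27, SE 0.14), Hsd17b4, the multifunctional enzyme of the pathway, fell by 0.92 (SE 0.14), and the thiolases Acaa1b and Scp2 fell by 0.61 (SE 0.11) and 0.55 (SE 0.11). Without Rptor cKO array 2 the falls numbered 2, and Acaa1b (limma adjusted p = 0.0575) and Scp2 (0.0816) were not called, nor was Scp2 without wild-type array 6 (0.0532). Among 13 measured regulators of lipid genes, 3 fell and none rose (median -0.20, with 1 higher at an unadjusted p below 0.05). These were Insig2 (-1.70, SE 0.27) and Insig1 (-1.20, SE 0.28), which hold SREBP precursors in the endoplasmic reticulum, and Srebf2 (-0.64, SE 0.16, limma adjusted p = 0.0453). The 3 falls became 1 without Rptor cKO array 1, without Rptor cKO array 2 or without wild-type array 6, where Insig1 (limma adjusted p = 0.0698 to 0.127) and Srebf2 were not called. Srebf2 also lost its call without wild-type array 5 (0.103 to 0.159 over these 4 fits). Srebf1, the SREBP gene best known for driving Elovl6, had no probe set that names it alone and was not analysed here.

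**Figure D4:**
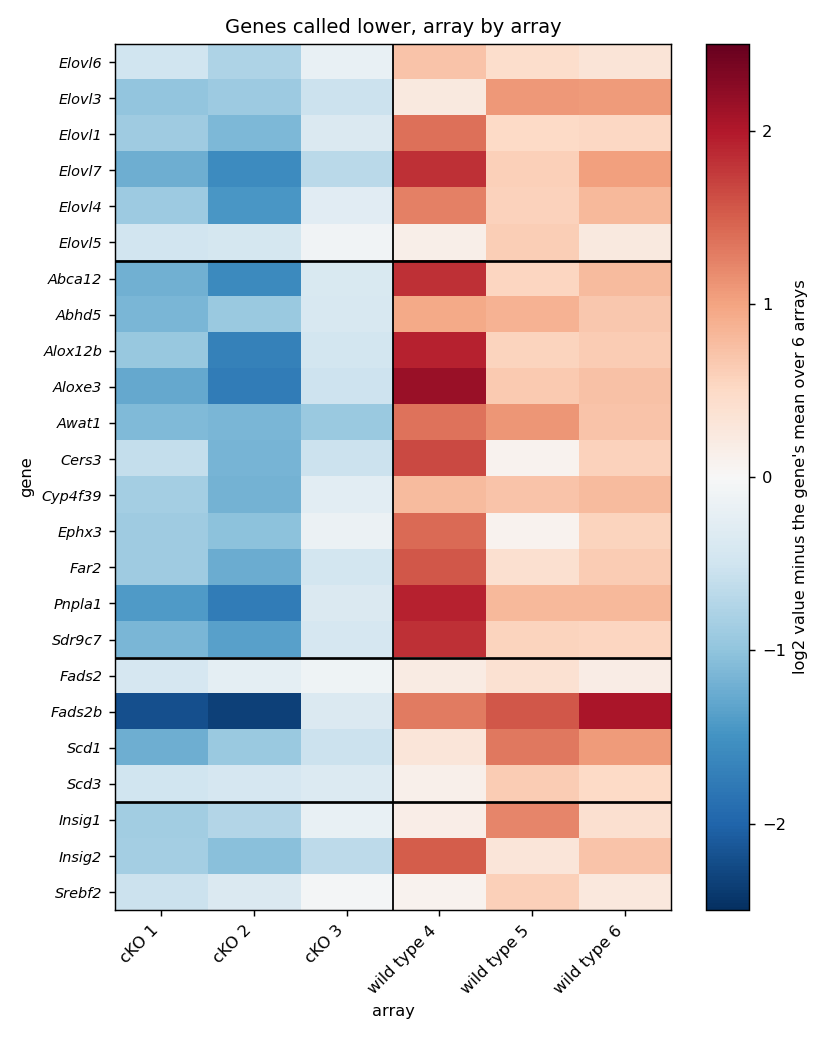
Log2 value minus the gene's mean over 6 arrays (colour) for the 6 elongases that fell and, below the lines, for the genes called lower among the users of very long and ultra-long chains, the desaturases and the lipid regulators (rows), in 3 Rptor cKO (left) and 3 wild-type arrays (right). Wild-type array 4 is the highest for all 11 users of long chains, and wild-type array 5 for 3 of 4 desaturases.

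The order of the wild-type arrays differed between the pathway lists. All 11 users of very long and ultra-long chains that fell were highest in wild-type array 4, like Elovl6, Elovl1, Elovl7 and Elovl4. Of the 4 desaturases that fell, 3 were highest in wild-type array 5, like Elovl3 and Elovl5, and so were 2 of the 3 regulators. The remaining desaturase, Fads2b, was highest in wild-type array 6, as no elongase that fell was. Of the falls in the other lists, wild-type array 4 was the highest for 2 of 3 supply genes, 5 of 8 activation genes and 4 of 7 peroxisomal genes, and array 6 for 1, 3 and 2 of these and for Tecr. These counts rest on 3 wild-type arrays, and the order of the arrays is a description. Of the markers of other cells, 5 of 6 fibroblast markers rose. Their summed log2 level was 36.3 to 40.6 in Rptor cKO and 32.4 to 34.3 in wild type. Of the immune markers 2 of 6 fell, and 1 of 5 endothelial markers rose. Ptprc, 1 of these 2 immune markers, read under the negative control median on 3 Rptor cKO arrays and 1 wild-type array. With values raised to that median its fall was 1.05-fold. The other, Csf1r, read above that median on each of the 6 arrays and fell (-0.64, SE 0.12, limma adjusted p = 0.0141). How the call of Csf1r depends on single arrays was not examined. Of the endothelial markers, 3 stayed under that median on each of the 6 arrays. Among 5 melanocyte and 5 skeletal muscle markers none passed the test (limma, with 2 and 4 higher at an unadjusted p below 0.05). Their part in the elongase values was not tested.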

How the data were processed

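The deposited log2 values, 1 column per array, were used as given. Biotin-labelled total RNA was prepared with the Ambion Expression WT kit, per the labels' protocols. RMA, Partek and build mm10 are named in the submitters' processing notes, without versions. RMA forces arrays toward a common distribution, so a general change of RNA per cell cannot be seen. No slide or scan date was at hand, and batches were not examined.

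Of 72688 probe sets, 6732 controls were left out. A platform table with symbols updated by Entrez ID gave 30604 probe sets of a single gene, and 2146 naming several genes were not used, among them those of Srebf1 and Cers1. The 30142 genes were each given by the probe set with the highest mean.

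Each gene was fitted by group alone (R 4.3.3, limma 3.58.1, lmFit then eBayes), and p-values were adjusted by Benjamini-Hochberg over 30142 genes, two-sided. SE and the 95% intervals are moderated, and SD is over 3 arrays. No dim genes were filtered out; the negative control median as a guide to background was chosen after values were seen. The 13 alternatives include array medians subtracted, quantile normalization, robust variance moderation with a trend and an ordinary linear model without moderation. The others are a filter on dim genes, averaged probe sets, embryo sex as a term and each array left out. Within-array ratios were compared by exact permutation with scipy 1.17.1.

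The named genes were the 7 members, from each pathway list up to 4 called genes a direction, by smallest p, and the 3 closest genes to each member that fell. Genes adjacent on the chromosome were added later by position. Fasn, Fads1, Hsd17b12, Hacd2, Cers3 and the overlapping genes lie outside that rule and were picked after their values were seen. The same holds for the cell markers given by name, except Awat1. The members and lists were chosen with earlier results of these data known. Promoters are RefSeq's (GRCm38.p6); 6 of 7 members were in the table, Elovl1 and Elovl2 with 2 windows each, and Elovl3 was not. The samples of a group are biological replicates, per the series description, and the number of arrays limits the precision.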

Additional observations from a re-analysis of the deposited data

How the results depend on the processing

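The 7 members gave 91 values under 13 alternatives. None changed direction, 76 stayed on their side of the threshold and 15 calls were lost. Without variance moderation, an ordinary linear model with 4 residual degrees of freedom called none of the 6 members that fell, with the same differences of -0.98 for Elovl6, -1.61 for Elovl3, -1.59 for Elovl1, -2.31 for Elovl7, -1.76 for Elovl4 and -0.67 for Elovl5 (adjusted p from 0.132 to 0.196). All 6 had an unadjusted p below 0.05 there, and 8 genes were called in all. With embryo sex as a term, which compares the male Rptor cKO array 2 with the wild type, 3 members were called and 642 genes in all. Elovl3 (-1.70), Elovl1 (-1.91) and Elovl5 (-0.78) lost their calls. With quantile normalization Elovl5 (-0.60) missed the threshold (adjusted p = 0.0508).

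With each array left out in turn, the members called numbered 4 to 6 and the genes called in all 886 to 2443. The lowest, 886, was without Rptor cKO array 2, and 1850 were called without Rptor cKO array 1. The difference ran from -1.13 to -0.83 for Elovl6, -1.88 to -1.46 for Elovl3, -1.80 to -1.30 for Elovl1, -2.58 to -1.97 for Elovl7, -2.06 to -1.47 for Elovl4 and -0.80 to -0.53 for Elovl5.

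Among the pathway lists, the ordinary linear model called 0 genes in each of the 7, with 1 to 14 at an unadjusted p below 0.05. With embryo sex as a term the counts were 0 elongation cycle partners, 1 desaturase, 1 gene of malonyl-CoA and palmitate supply, 1 of acyl-CoA activation, 5 users of long chains, 0 regulators and 1 peroxisomal gene, and the lists with 0 had 3 and 4 genes at an unadjusted p below 0.05. Moderation with trend called 0 elongation cycle partners. With each array left out the ranges were 0 to 1 elongation cycle partners, 3 to 4 desaturases, 2 to 4 supply genes, 2 to 8 activation genes, 3 to 14 users, 1 to 4 regulators and 2 to 6 peroxisomal genes. These ranges count calls in either direction. Such fits have fewer arrays, and the causes of the changed counts were not tested. Another 49 named genes kept their direction in all 637 values, and 133 of these lost the call. No paired analysis was possible because the groups share no replicate numbers.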
